A study of Capra hircus with 9 samples.

Results

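The 9 genes described here make, carry, take up, bind or respond to retinoids, the vitamin A family of molecules, in the goat mammary gland. They were chosen by symbol from the 23499 genes of the deposited expression table: the retinaldehyde dehydrogenases ALDH1A1, ALDH1A2 and ALDH1A3, the plasma carrier RBP4, its membrane receptor STRA6, the retinoic acid-binding proteins CRABP1 and CRABP2, and the retinoic acid receptors RARA and RARB. Mammary tissue came from 9 healthy Laoshan dairy goats in parity 3, with an average age of 4 years, which were slaughtered for sampling. Late lactation (LL, 240 days postpartum), the dry period (DP, 300 days postpartum) and late gestation (LG, 140 days after mating) were each represented by 3 goats, with 1 library per goat and no treatment, and each goat was sampled at 1 stage only. The tissue is a mixture of secretory epithelium, stroma, vessels and immune cells, so fewer cells of a type and less RNA per cell cannot be told apart.

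Retinol circulates bound to RBP4 and can enter cells through STRA6. Inside the cell it is stored as retinyl esters or oxidised to retinaldehyde, which the ALDH1A enzymes turn irreversibly into retinoic acid. Retinoic acid is carried by the CRABP proteins and acts through RAR proteins, which bind DNA together with RXR partners and switch target genes on or off. The pathway is known for controlling epithelial differentiation and branching, and the lactating gland also exports vitamin A into milk.

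Values were read as FPKM (fragments per kilobase of transcript, relative to all mapped fragments of the library), which allows levels of different genes to be compared because it accounts for length. Read counts were not analysed here, so the depth behind each value is unknown. Abundant milk protein transcripts can lower the FPKM of all other genes of a library. Each library was therefore divided by a median-ratio scaling factor, which was 0.498 to 0.605 for the LL libraries, 1.44 to 1.53 for those of DP and 1.198 to 1.31 for those of LG. Below, "FPKM" means the value as deposited and "scaled FPKM" the value after this division. A log2 fold change is a difference of log2(scaled FPKM + 1) between stages, fitted with limma over all 9 libraries and the 14701 genes that reached 0.5 FPKM in at least 3 libraries, and it understates changes of low genes. A gene was called when its Benjamini-Hochberg adjusted p was under 0.05 and its log2 fold change was at least 1 in size. Correlations between libraries across genes ranged from 0.920 to 0.980 for libraries of the same stage, with DP replicates 1 and 3 the lowest pair, and from 0.752 to 0.868 for libraries of different stages. DP replicate 3 stood apart for the retinoid genes, so values with and without it are given beside each result that rests on it.

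The median level was highest in DP for 7 of the 9 genes, in LL for ALDH1A1 and in LG for ALDH1A2, both in FPKM and in scaled FPKM. The share of all genes with their highest median in DP was not computed, so this count is a description. Without DP replicate 3, the log2 fold change in LG versus DP turned to 0.24 for CRABP1 and 0.04 for STRA6, neither of them called. In DP versus LL, ALDH1A3, RBP4, CRABP1, CRABP2 and STRA6 rose and ALDH1A1 fell, so that 6 of 9 genes were called, where 22.6% of all 14701 genes tested were called (13.8% higher and 8.79% lower). Without DP replicate 3 the count was 3 of 9, with RBP4 and STRA6 higher and ALDH1A1 lower. In LG versus LL, ALDH1A2 and STRA6 rose and ALDH1A1 fell, or 3 of 9 genes beside 17.3% of all genes tested (10.7% higher and 6.61% lower). In LG versus DP, ALDH1A1 and ALDH1A2 rose and ALDH1A3, RBP4 and CRABP2 fell, or 5 of 9 genes beside 13.3% of all genes tested (6.37% higher and 6.88% lower). That count was 4 without DP replicate 3, and it was 2 without LG replicate 1 or without LG replicate 3, both times ALDH1A3 and CRABP2. Without scaling, which leaves in a shift of the median gene between stages, 7979 genes were higher and 369 lower in DP versus LL, 6698 and 345 in LG versus LL, and 715 and 1577 in LG versus DP. The retinoid genes among them were 7 higher and 1 lower, 4 higher and 0 lower, and 2 higher and 4 lower. An adjusted p under 0.05, whatever the fold, was reached by 8 genes in DP versus LL, where 56.9% of all genes tested reached it, by 5 in LG versus LL (50.2%) and by 6 in LG versus DP (34.8%). In scaled FPKM, the libraries of DP and LL did not overlap for 7 genes (6 higher and 1 lower in DP), beside 65.9% of all genes tested (32.5% higher and 33.4% lower). For LG and LL it was 8 genes (5 higher and 3 lower in LG), beside 61.1% (31.0% and 30.2%), and for LG and DP it was 6 genes (2 higher and 4 lower in LG), beside 47.9% (25.1% and 22.8%).

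All 9 genes passed the filter on low values. However, ALDH1A2, RBP4, STRA6 and RARB were under 0.5 FPKM in every LL library and passed only through DP or LG. Their differences from LL, here and below, are therefore descriptions and no support for a difference. ALDH1A2 also fell short of 0.5 FPKM in DP replicate 2 and needed LG to pass, so its rise from DP to LG is a description too. Of the 5 genes other than ALDH1A2, RBP4, STRA6 and RARB, 4 were called in DP versus LL, 1 in LG versus LL and 3 in LG versus DP. Without DP replicate 3 these counts were 1, 2 and 3. The 3 comparisons share libraries, since each stage enters 2 of them. Over these 5 genes the median log2 fold change was 1.12 in DP versus LL, -0.48 in LG versus LL and -0.91 in LG versus DP, and without DP replicate 3 it was 0.76, -0.47 and -0.73. Over all 9 genes it was 1.12, 0.68 and -0.84, and 0.76, 0.67 and -0.07 without that library. For all genes tested the corresponding medians were 0.0041, 0.019 and 0.0083.

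**Figure D1:**
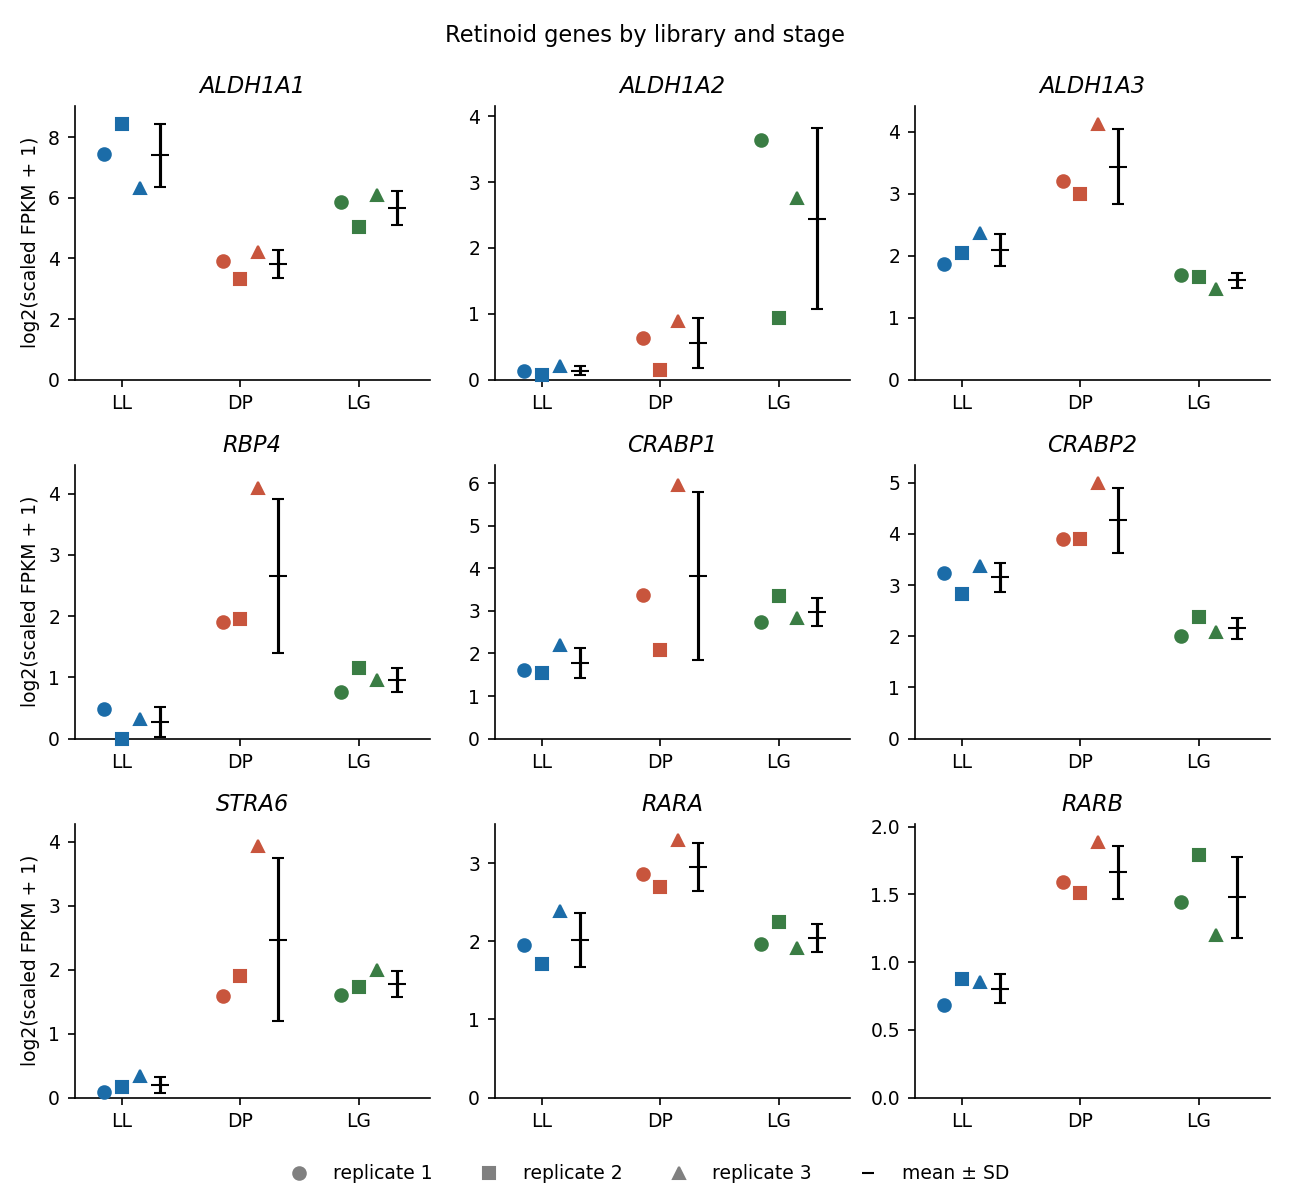
Level of the 9 retinoid genes as log2(scaled FPKM + 1), with its own axis from 0 for each gene, in LL, DP and LG. Points are single libraries (circle, square and triangle for replicates 1, 2 and 3) and bars are the mean ± SD of 3 libraries. ALDH1A1 is highest in LL and lowest in DP, ALDH1A2 is highest in LG, and the triangle of DP lies above both other DP points for every gene.

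The ALDH1A enzymes carry out the last step of retinoic acid synthesis, and each of the 3 genes peaked in a different stage. ALDH1A1 stood at 85.4, 189 and 48.3 FPKM in the LL libraries, at 21.6, 13.0 and 25.0 in DP and at 67.9, 39.5 and 88.1 in LG. All DP libraries lay below all others, while LL and LG overlapped in FPKM and did not overlap after scaling. In scaled FPKM the mean was 198 ± 133 (SD, n = 3) in LL, 13.5 ± 4.22 in DP and 51.9 ± 18.0 in LG. From LL to DP, ALDH1A1 fell by 3.58 on the log2 scale (SE 0.49, limma adjusted p = 0.00025), a 14.6-fold lower mean. It was called lower in each of the 18 alternative settings, 9 of which left out 1 library each. From DP to LG it rose by 1.85 (SE 0.49, adjusted p = 0.0160). This rise missed the threshold without DP replicate 2 (1.60, adjusted p = 0.0562), LG replicate 1 (1.75, adjusted p = 0.0535) or LG replicate 3 (1.63, adjusted p = 0.0596). LG was below LL by a log2 fold change of -1.73 (SE 0.49, adjusted p = 0.0145), which was not called without LG replicate 2 (-1.43, adjusted p = 0.0554) or without scaling between libraries (-0.57, adjusted p = 0.289).

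ALDH1A2, the enzyme best known from the embryo, was close to absent from LL and was found mainly in LG. The LL libraries were at 0.05, 0.03 and 0.09 FPKM, those of DP at 0.84, 0.15 and 1.23, and those of LG at 13.7, 1.13 and 7.53. The LG libraries differed widely among themselves, and the lowest of them lay within the DP range in FPKM, though not after scaling. The fitted log2 fold change from LL to LG was 2.30 (SE 0.54, adjusted p = 0.00639), a description given that ALDH1A2 passed the filter through DP and LG. From DP to LG the fitted log2 fold change was 1.89 (SE 0.54, adjusted p = 0.0235). All LG libraries reached 0.5 FPKM and DP replicate 2 did not, so the gene needed LG to pass the filter. This value is therefore also a description and no support for a difference. The call was lost without DP replicate 2 (1.66), LG replicate 1 (1.28) or LG replicate 3 (1.71), with adjusted p from 0.0672 to 0.0767. In DP versus LL, the log2 fold change was 0.42 (95% interval -0.80 to 1.63, adjusted p = 0.527).

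ALDH1A3, the third enzyme of the group, was a dry-period gene. It was at 1.32, 1.72 and 2.52 FPKM in LL, at 12.5, 10.01 and 23.6 in DP and at 2.67, 2.67 and 2.32 in LG. Every DP library lay above every LL and LG library. ALDH1A3 rose from LL to DP by 1.35 (SE 0.26, adjusted p = 0.00221) and fell from DP to LG, with a log2 fold change of -1.83 (SE 0.26, adjusted p = 0.000809). Without DP replicate 3, the difference from LL was 0.997 with an adjusted p of 0.00122 and lay just under the fold threshold, while the difference from LG was -1.47 (adjusted p = 0.000484) and still called. Between LG and LL the log2 fold change was -0.48 (95% interval -1.08 to 0.11, adjusted p = 0.154), and its sign turned to 0.34 without scaling between libraries.

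Shares within a library do not depend on scaling, and they set the 3 enzymes side by side. ALDH1A1 made up 97.5% ± 2.27 (SD, n = 3) of the summed FPKM of the 3 enzymes in LL, then 56.0% ± 5.82 in DP and 87.3% ± 5.79 in LG. The single libraries were at 94.9% to 99.1%, 50.2% to 61.8% and 80.6% to 91.2%, so the 3 stages did not overlap. ALDH1A3 took most of the remainder in DP, at 42.1% ± 5.86, versus 2.46% ± 2.18 in LL and 3.90% ± 2.001 in LG. ALDH1A2 made up 16.2%, 2.61% and 7.69% in the LG libraries and at most 2.47% in any DP library. The summed FPKM of the enzymes was 50.9 to 191 in LL, 23.2 to 49.9 among DP libraries and 43.3 to 97.9 among LG libraries.

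**Figure D2:**
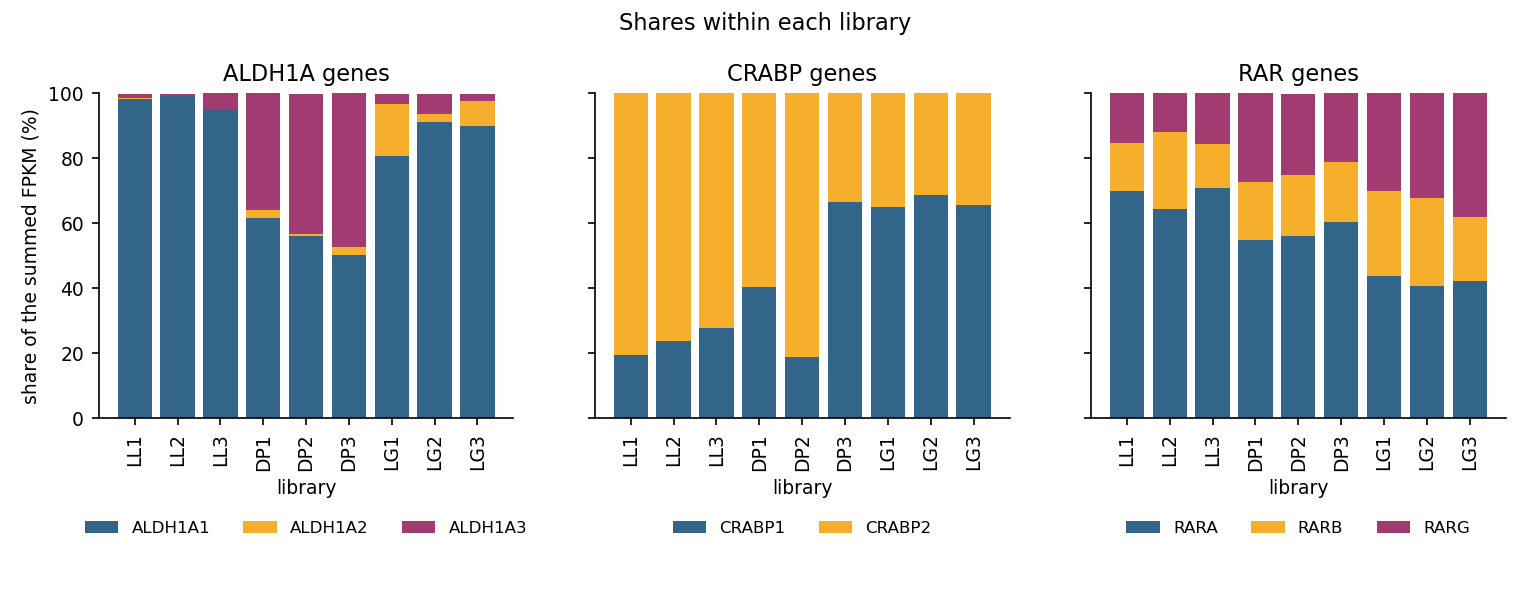
Share (%) of the summed FPKM that each gene takes within its family, for the ALDH1A, CRABP and RAR genes, with 1 bar per library. ALDH1A3 takes 35.8% to 47.4% of its family in DP and at most 6.16% elsewhere, CRABP1 takes 65.1% to 68.8% in LG, and the share of RARA steps down from LL to DP to LG.

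RBP4 and STRA6, the carrier of retinol in blood and the receptor that takes retinol from it, shared a pattern of very low values in LL and their highest values in DP. RBP4 was at 0.20, 0.00 and 0.15 FPKM in LL, so that 1 library is listed at 0, at 4.18, 4.17 and 23.3 in DP and at 0.84, 1.5 and 1.23 in LG. STRA6 was at 0.03, 0.07 and 0.16 FPKM in LL, at 3.06, 3.94 and 20.5 in DP and at 2.44, 2.85 and 3.95 in LG. For both genes LL lay below all other libraries, and DP replicate 3 was over 5 times both other DP libraries. RBP4 separated DP from LG without overlap, whereas the STRA6 values of DP and LG overlapped.

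The fitted log2 fold change from LL to DP was 2.39 for RBP4 (SE 0.49, adjusted p = 0.00286) and 2.27 for STRA6 (SE 0.49, adjusted p = 0.00369), and without DP replicate 3 it was 1.62 and 1.51. Both genes entered the test through DP and LG, so these values describe the gap from LL and do not support it. From DP to LG, RBP4 fell, with a log2 fold change of -1.70 (SE 0.49, adjusted p = 0.0240). That call was lost without DP replicate 3 (-0.95, adjusted p = 0.00384, under the fold threshold), LG replicate 1 (-1.59, adjusted p = 0.0730) or LG replicate 3 (-1.68, adjusted p = 0.0626). STRA6 differed between DP and LG by -0.69 (95% interval -1.80 to 0.41, adjusted p = 0.299), and by 0.04 without DP replicate 3. STRA6 was also higher in LG than in LL, by 1.58 (SE 0.49, adjusted p = 0.0232). This call was lost without LL replicate 1 (1.59), LL replicate 2 (1.63), LG replicate 2 (1.58) or LG replicate 3 (1.44), with adjusted p from 0.0535 to 0.0739, and under quantile normalization (1.35, adjusted p = 0.0655). RBP4 in LG versus LL gave 0.69 (95% interval -0.41 to 1.79, adjusted p = 0.271), and 1.99 with a pseudocount of 0.1 (adjusted p = 0.0447), which was called.

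CRABP1 and CRABP2 bind retinoic acid in the cytoplasm, and CRABP2 is known to hand it to RAR in the nucleus. CRABP2 was at 4.22, 3.39 and 5.64 FPKM in LL, at 21.3, 20.0 and 44.5 in DP and at 3.62, 5.18 and 4.22 in LG. DP lay above both other stages in every library, while LL and LG overlapped in FPKM. CRABP2 rose from LL to DP by 1.12 (SE 0.29, adjusted p = 0.00879) and fell from DP to LG, with a log2 fold change of -2.11 (SE 0.29, adjusted p = 0.00059). The fall held in all 18 alternatives (-1.73 without DP replicate 3), whereas the rise dropped under the fold threshold without DP replicate 3 (0.75, adjusted p = 0.00908) or LL replicate 2 (0.94, adjusted p = 0.0402). LG minus LL gave a log2 fold change of -0.99 (95% interval -1.64 to -0.35, adjusted p = 0.0166), just under the fold threshold, and -0.01 without scaling. It passed the threshold without LL replicate 2 (-1.18) or LG replicate 2 (-1.10), and with a pseudocount of 0.1 (-1.17).

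CRABP1 was the most variable of the 9 genes in DP. The LL libraries were at 1.02, 1.06 and 2.16 FPKM, those of DP at 14.4, 4.70 and 88.2, and those of LG at 6.74, 11.4 and 8.11. LL lay below LG in every library, but after scaling DP replicate 2 (3.26) lay within the LL range of 1.92 to 3.57. CRABP1 rose from LL to DP by 2.03 (SE 0.76, adjusted p = 0.0445). That call held in 7 of 18 alternatives, with adjusted p from 0.00329 to 0.111. Of the fits that left out 1 library, it held only without DP replicate 2 (2.87, adjusted p = 0.00510). Without DP replicate 3 the log2 fold change was 0.95 (adjusted p = 0.0506), and without each of the other 7 libraries it was 1.91 to 2.24 with adjusted p from 0.0575 to 0.111. In LG versus LL it was 1.19 (95% interval -0.52 to 2.90, adjusted p = 0.220). This difference was called without scaling (2.02, adjusted p = 0.0322) and without DP replicate 3 in the shared fit (1.19, adjusted p = 0.0131). It was also called in a fit of LG and LL alone (1.16, adjusted p = 0.0025). In LG versus DP the log2 fold change was -0.84 (95% interval -2.55 to 0.87, adjusted p = 0.424), and 0.24 without DP replicate 3. CRABP1 made up 65.1%, 68.8% and 65.8% of the summed FPKM of the CRABP pair in LG, 19.5% to 27.7% in LL, and 40.4%, 19.0% and 66.5% in the DP libraries.

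RARA and RARB encode nuclear receptors for retinoic acid, and RARB is itself a classic retinoic acid target. RARA was at 1.43, 1.25 and 2.56 FPKM in LL, at 9.60, 7.91 and 12.7 in DP and at 3.49, 4.60 and 3.63 in LG. RARB was lower, at 0.30, 0.46 and 0.49 FPKM in LL, 3.09, 2.67 and 3.88 for the DP libraries and 2.07, 3.04 and 1.70 for those of LG. In scaled FPKM, RARA separated DP from both other stages and RARB separated LL from both other stages, without overlap.

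Neither receptor was called in any comparison, because the log2 fold changes stayed under 1. Without scaling, both were called in DP versus LL (RARA 2.02 and RARB 1.56), RARB in LG versus LL (1.19) and RARA in LG versus DP (-1.16). The same 4 differences were called with scaling and a pseudocount of 0.1, at 1.13, 1.43, 1.15 and -1.09. RARA was higher in DP than in LL by 0.94 (95% interval 0.48 to 1.40, adjusted p = 0.00397) and lower in LG than in DP (-0.91, 95% interval -1.37 to -0.45, adjusted p = 0.00793). RARA in LG versus LL gave 0.03 (95% interval -0.43 to 0.49, adjusted p = 0.927). RARB, which also passed the filter through DP and LG, was above LL by 0.86 in DP (95% interval 0.48 to 1.24, adjusted p = 0.00219) and by 0.68 in LG (95% interval 0.30 to 1.05, adjusted p = 0.00851). RARB in LG versus DP gave -0.19 (95% interval -0.56 to 0.19, adjusted p = 0.423). RARA crossed the fold threshold in DP versus LL without LL replicate 3 (1.12) or DP replicate 2 (1.05), and in LG versus DP without DP replicate 2 (-1.03) or LG replicate 2 (-1.01).

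With RARG, the remaining receptor of the family, the receptor mix changed stepwise. RARA made up 68.5% ± 3.53 (SD, n = 3) of the summed RAR FPKM in LL, then 57.1% ± 2.84 in DP and 42.3% ± 1.48 in LG, with no overlap between stages. RARG made up 14.2% ± 2.03, 24.5% ± 3.11 and 33.4% ± 4.10, also without overlap. RARB made up 17.3% ± 5.56, 18.4% ± 0.608 and 24.3% ± 3.93, and its shares in LL overlapped those in DP and LG. In LL, RARB was at 0.30 to 0.49 FPKM and RARG at 0.23 to 0.56, so the LL shares of the RAR genes rest on low values and are descriptions. The RXR partners changed likewise: RXRA made up 61.5% ± 4.05 of the RXR sum in LL, then 49.7% ± 0.163 in DP and 35.0% ± 1.07 in LG, and RXRB took nearly all of the rest.

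**Figure D3:**
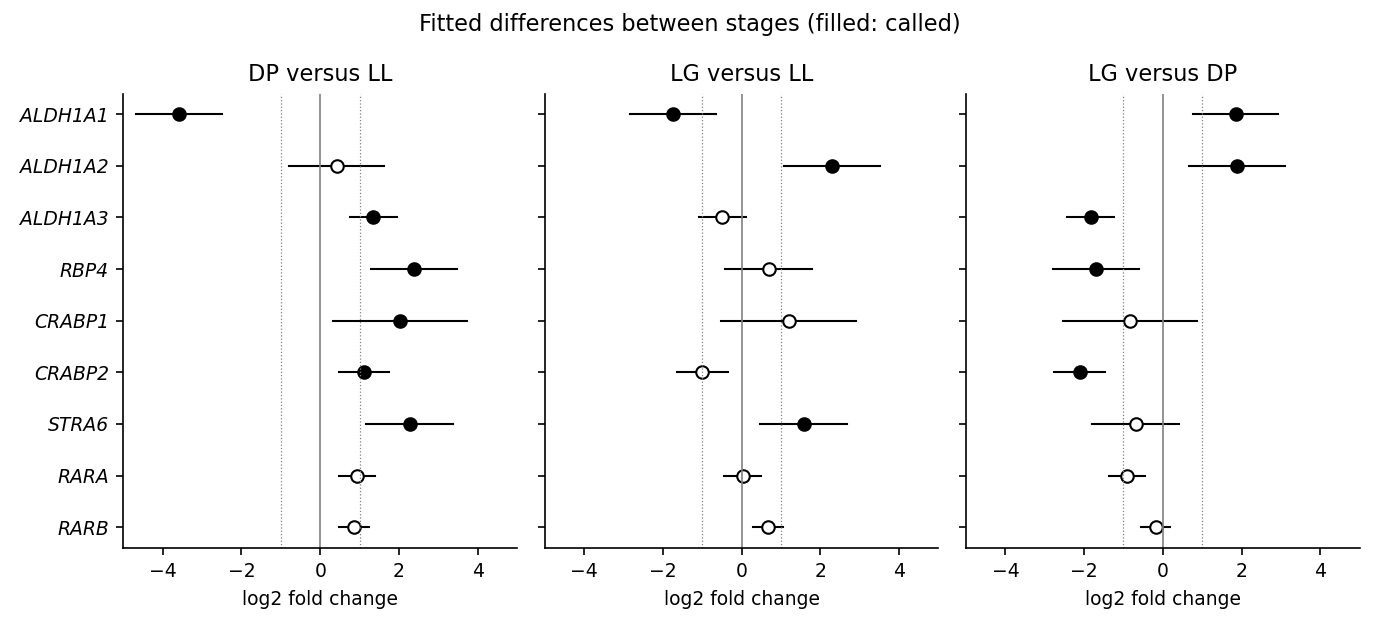
Fitted log2 fold change of each retinoid gene (x axis) with its 95% interval in DP versus LL, LG versus LL and LG versus DP. Filled circles were called, open circles were not, and dotted lines mark the fold threshold of 1 in either direction. ALDH1A1 lies at -3.58 in DP versus LL, on the opposite side from the other genes, and the widest intervals are those of CRABP1.

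The order of levels among the 9 genes also differed between stages. In LL, ALDH1A1 was far above the rest with a median of 85.4 FPKM, and CRABP2 came next at 4.22. ALDH1A3, RARA and CRABP1 followed at 1.72, 1.43 and 1.06 with overlapping values, then RARB at 0.46, and RBP4, STRA6 and ALDH1A2 overlapped at 0.15, 0.07 and 0.05. In DP, the medians ran from ALDH1A1 at 21.6 and CRABP2 at 21.3 down to RARB at 3.09. Each gene in that run overlapped its neighbour in the order, and only ALDH1A2, at 0.84, lay below without overlap. In LG, ALDH1A1 at 67.9 stood clear of CRABP1 at 8.11, ALDH1A2 at 7.53, CRABP2 at 4.22, RARA at 3.63, STRA6 at 2.85, ALDH1A3 at 2.67 and RARB at 2.07. Neighbours among these 7 overlapped, and RBP4 was lowest at 1.23.

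In DP replicate 3, all 9 retinoid genes were higher than in both other DP libraries, whereas 38.7% of all genes tested had their highest DP value there. The scaled FPKM of DP replicate 3 was 6.50 times the higher of the other DP libraries for CRABP1, 5.58 times for RBP4, 5.21 times for STRA6, 2.22 times for CRABP2 and 2.001 times for ALDH1A3. For ALDH1A2, RARA, RARB and ALDH1A1 it was 1.55, 1.40, 1.33 and 1.23 times. Over 2 times was reached by 5 of the 9 genes and by 3.42% of all genes tested, and no retinoid gene reached it in DP replicate 1 or 2.

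Fibroblast markers were high in the same library. Of 7 markers, 6 were highest in DP replicate 3 among the DP libraries, and COL1A1, COL1A2, COL3A1 and LUM reached 3.43 to 3.75 times the higher of the others, while DCN reached 1.096, PDGFRA 1.37 and FAP 0.687 times. Their summed scaled FPKM was 217 to 333 in LL, 522, 936 and 2413 in DP replicates 1, 2 and 3, and 525 to 957 in LG. Of 8 basal and myoepithelium markers, 4 were also over 2 times higher in DP replicate 3, namely ACTA2, MYH11, CNN1 and MYLK. TP63 lay close to the higher of the other DP libraries. The basal keratins KRT5 and KRT14 were at 0.354 and 0.473 times that library, and OXTR was at 0.258 times. No marker of any list was at 0 in all libraries. The summed scaled FPKM of 8 luminal epithelium markers was 929 to 1185 in LL, 374 to 680 among DP libraries and 874 to 1037 among LG libraries. The lower DP sum came mainly from ELF5, whose mean scaled FPKM was 596 (LL), 32.1 (DP) and 452 (LG). ELF5 was the only luminal marker called in DP versus LL (-4.19, adjusted p = 3.13e-06). Fitted changes there were above 0 for 3 of the 8, KRT7, KRT8 and KRT18, and below 0 for 5. For 6 leukocyte and macrophage markers the sum was, with stages ordered likewise, 49.6 to 66.8, 106 to 137 and 36.4 to 44.7. For 6 endothelium markers the sum was 109 to 138, 129 to 199 and 62.6 to 86.5. The summed scaled FPKM of 7 adipocyte markers was 266 to 401 in LL, 4.77 to 24.6 among DP libraries and 22.0 to 27.0 among LG libraries, nearly all of it in LL from CIDEA, a gene also known from the lactating epithelium. Of the 4 adipocyte markers tested, 0 were higher and 2, CIDEA and LIPE, were lower in DP versus LL, beside 13.8% and 8.79% of all genes tested. ADIPOQ, the most specific of them, was at 19.3, 0.79 and 1.72 FPKM in the DP libraries and at most 0.41 elsewhere, and was not called (adjusted p = 0.0766). The part of cell make-up in the values of the retinoid genes was not tested.

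**Figure D4:**
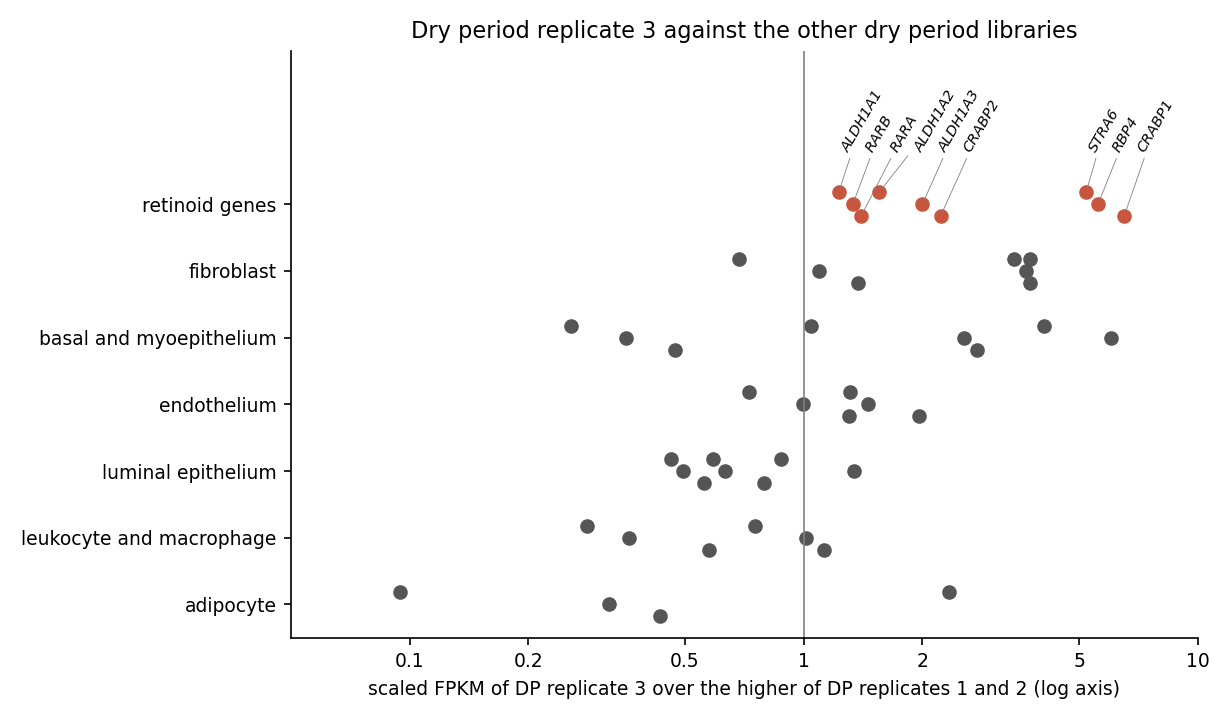
Scaled FPKM of DP replicate 3 divided by the higher of DP replicates 1 and 2 (log axis) for the 9 retinoid genes and for the tested marker genes of 6 cell types, with 1 point per gene. All retinoid genes lie to the right of 1, with STRA6, RBP4 and CRABP1 beyond 5, and 4 fibroblast markers lie between 3.43 and 3.75.

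A list of 51 other genes of the retinoid pathway set the 9 genes in context. Of these, 43 were in the table, 33 passed the filter on low values, and 8, among them all 3 CYP26 genes that break down retinoic acid, were not analysed here. In DP versus LL, 10 of the 33 were called, 7 higher and 3 lower, with a median log2 fold change of 0.04. In LG versus LL, 7 were called, 4 higher and 3 lower, with a median of -0.14. In LG versus DP it was also 7, 3 higher and 4 lower, with a median of -0.02. These counts stood beside 22.6%, 17.3% and 13.3% of all genes tested. Among the genes called versus LL, TTR, RDH13 and MEIS1 were under 0.5 FPKM in every LL library, so these calls are descriptions.

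Among the genes of retinol handling, LRAT, which esterifies retinol for storage, was at 11.1, 10 and 16.4 FPKM in LL, at 1.52, 0.57 and 0.72 in DP and at 12.9, 6.89 and 17.4 in LG. From LL to DP it fell by 3.85 on the log2 scale (adjusted p = 7.26e-06), and from DP to LG it rose by 2.68 (adjusted p = 0.000162). In LG versus LL it was lower after scaling (-1.17, adjusted p = 0.00667), which was not called without scaling (-0.07, adjusted p = 0.851) or without LG replicate 2 (-0.84, adjusted p = 0.0142). Like those of ALDH1A1, its DP libraries lay below all others.

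LRP2, a large endocytic receptor that takes up RBP4, rose in both steps. It was at 0.70, 0.99 and 3.28 FPKM in LL, at 17.6, 16.7 and 8.52 in DP and at 46.3, 37.2 and 71.2 in LG, which gave log2 fold changes of 1.55 in DP versus LL (adjusted p = 0.00751), 3.54 in LG versus LL (adjusted p = 9.62e-05) and 1.99 in LG versus DP (adjusted p = 0.00375). TTR, the plasma partner of RBP4, was at 0.11, 0.48 and 0.27 FPKM in LL and at 17.0, 70.5 and 1.36 in DP. It was called higher in DP versus LL (2.83, adjusted p = 0.0238). However, TTR passed the filter only through DP and LG, so this is a description and no support for a difference. The call was lost without LL replicate 1 (2.73), LL replicate 3 (2.84), DP replicate 1 (2.69) or DP replicate 2 (1.68), with adjusted p from 0.0523 to 0.0642. The library with the lowest TTR in DP, replicate 3, was the one in which RBP4 was highest. BCO2, which cleaves carotenoids, rose in DP versus LL (1.30, adjusted p = 0.00265), though not past the fold threshold without DP replicate 3 (0.95) or under quantile normalization (0.86). BCO2 was at 0.58, 0.32 and 0.27 FPKM in LL and passed the filter mainly through DP and LG, so its rise is a description. Among the cellular retinol-binding genes, RBP7 was at 1.73 to 3.33 FPKM in all libraries and was not called (-0.97 in DP and -0.66 in LG, both versus LL, and 0.03 and 0.21 without scaling). RBP7 crossed the fold threshold in DP without LL replicate 1 (-1.02), LL replicate 3 (-1.07) or DP replicate 2 (-1.06). It also did so under quantile normalization (-1.13) and with a pseudocount of 0.1 (-1.32). RBP2 and RBP5 were too low to be tested, at no more than 0.56 and 0.13 FPKM.

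Of the oxidoreductases that interconvert retinol and retinaldehyde, DHRS3, which reduces retinaldehyde back to retinol, was at 5.63, 7.03 and 9.48 FPKM in LL, 26.6, 18.9 and 21.5 for the DP libraries and 39.6, 47.2 and 78.4 for those of LG. DHRS3 rose in LG versus LL (1.62, adjusted p = 0.000394) and in LG versus DP (1.43, adjusted p = 0.00129). RDH13 rose in LG versus LL (1.26, adjusted p = 0.00199), with 0.97 without LG replicate 3 and 0.82 under quantile normalization, both under the fold threshold. RDH11 fell in DP versus LL (-1.30, adjusted p = 0.00359), with -0.97 without LL replicate 2 and -0.22 without scaling, neither of them called. RARG was at 0.23 to 0.56 FPKM in LL, 3.54 to 4.75 among DP libraries and 2.40 to 3.61 among LG libraries. It too passed the filter mainly through DP and LG, and versus LL it was higher in DP (1.24, adjusted p = 0.000144) and LG (1.07, adjusted p = 0.000464). Quantile normalization brought both values under the fold threshold (0.74 and 0.70), and so did leaving out LL replicate 2 (0.99) or LG replicate 2 (0.97) for LG. RXRA and RXRB were not called in any comparison, with log2 fold changes between -0.50 and 0.81, but without scaling the changes of RXRA were 1.13 in DP and 0.47 in LG and those of RXRB 1.62 and 1.72, all versus LL. RXRG was too low to be tested, at no more than 0.21 FPKM.

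Of 8 genes known to respond to retinoic acid, 2 were called higher and 0 lower in DP versus LL, 0 and 1 in LG versus LL, and 0 and 3 in LG versus DP. The shares of all genes tested were, in the same order, 13.8% and 8.79%, 10.7% and 6.61%, and 6.37% and 6.88%. RARRES2 and MEIS1 rose in DP versus LL, by 1.62 (adjusted p = 0.000645) and 2.03 (adjusted p = 4.25e-05), and fell in LG versus DP (-1.65, adjusted p = 0.0012 and -1.88, adjusted p = 0.000203). MEIS1, a homeobox gene, was at 0.09 to 0.12 FPKM in LL, 3.62 to 7.48 among DP libraries and 0.24 to 0.78 among LG libraries. It too passed the filter mainly through DP, so its differences of DP from LL and from LG are descriptions and no support for a difference. TGM2, a transglutaminase, was at 6.17, 13.2 and 7.90 FPKM in LL, at 27.8, 18.1 and 30.4 in DP and at 3.03, 3.46 and 5.56 in LG. After scaling TGM2 did not pass the test between DP and LL (0.10, adjusted p = 0.765), although it did without scaling (1.42, adjusted p = 0.000993). TGM2 fell in LG versus both LL (-2.02, adjusted p = 0.000344) and DP (-2.12, adjusted p = 0.000463), the former to -0.98 and under the fold threshold without scaling. RARRES1, CD38 and MEIS2 were not called in any comparison.

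**Figure D5:**
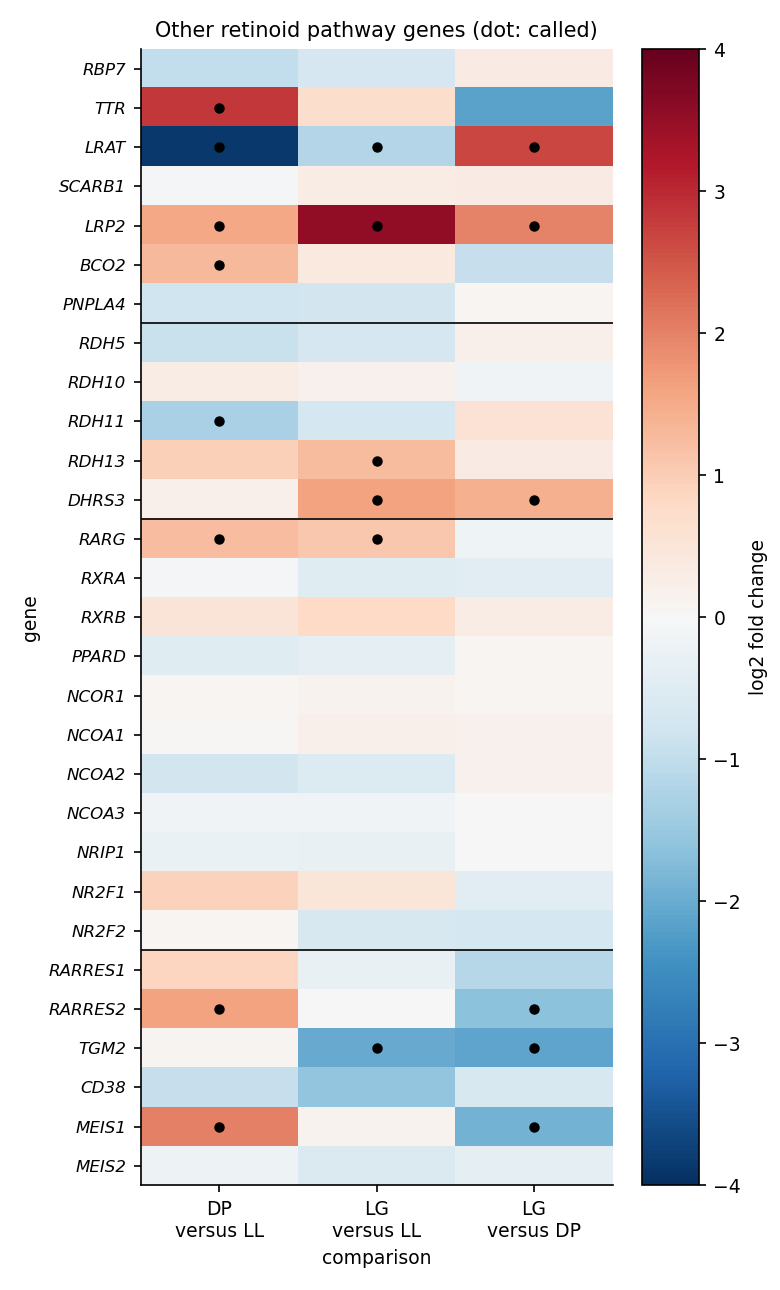
Log2 fold change of 29 of the 33 tested genes of the retinoid pathway list in the 3 comparisons, as colour from blue (-4, lower) to red (4, higher). Dots mark genes that were called, and lines part retinol binding, storage and uptake, oxidoreductases, receptors and coregulators, and retinoic acid responsive genes. LRAT is the deepest blue in DP versus LL at -3.85 and LRP2 the deepest red in LG versus LL at 3.54.

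For each gene that was called, the 3 genes with the most similar pattern were found by the root mean square (RMS) difference of log2 scaled values over the 9 libraries, after each gene's mean was subtracted. ALDH1A3 had the closest counterparts, FAM105A (RMS 0.132), FLRT2 (0.135) and CLIC2 (0.173). CRABP2 was followed by GAS6 (0.167), FLRT2 (0.193) and RAB32 (0.196), so FLRT2 appears for both. RBP4 was followed by SEMA3B (0.248), FLNC (0.256) and CMKLR1 (0.274), and STRA6 by LYNX1 (0.205), P3H4 (0.215) and ADAMTS2 (0.218). CRABP1 was followed by the collagen genes COL8A2 (0.385) and COL11A1 (0.474) and by MXRA5 (0.435), all 3 with their highest value in DP replicate 3. ALDH1A1 was followed by SEC11C (0.513), A2ML1 (0.555) and TSPAN6 (0.557). ALDH1A2 was followed by FCRLB (0.278), CDK1 (0.462), the cell division kinase, and EPHA7 (0.480). The LG libraries of CDK1 were at 10.1, 4.11 and 8.34 FPKM and those of FCRLB at 9.28, 1.59 and 6.74, in the same order as those of ALDH1A2. All these genes were picked for likeness over the same 9 libraries. A shared order or a shared highest library follows from that choice and is no support for a link.

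The 9 genes lie on 7 chromosomes, in the coordinates of the deposited table, which names no build. On chromosome 21 lie ALDH1A3 (4863394 to 4906480, minus strand), CRABP1 (30346175 to 30353383, plus strand) and STRA6 (33920922 to 33950606, plus strand), the last pair 3.57 Mb apart. ALDH1A1 lies on chromosome 8 (48842634 to 48898290, minus strand), ALDH1A2 on chromosome 10 (50839609 to 50957248, minus strand) and RBP4 on chromosome 26 (36491826 to 36498459, plus strand). CRABP2 lies on chromosome 3 (105983749 to 105989432, minus strand), RARA on chromosome 19 (40199033 to 40242465, plus strand) and RARB on chromosome 27 (5262380 to 5444953, plus strand). The table gives 1 value per gene, so isoforms were not separated, although RefSeq lists 5 transcripts for STRA6, 4 for RARA and 2 each for RARB and RBP4. RARB ends 32 bp from TOP2B on the opposite strand. TOP2B was at 5.26 to 7.99 FPKM in LL, 30.1 to 40.5 among DP libraries and 26.5 to 35.2 among LG libraries, and the ratio of RARB to TOP2B was 0.057 to 0.0696, 0.0763 to 0.121 and 0.0484 to 0.115. Whether reads of TOP2B enter the value of RARB was not tested.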

How the data were processed

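Mammary tissue of 9 goats (3 each in LL, DP and LG) was sequenced by the authors after TRIzol extraction and TruSeq library preparation. The deposited table holds 1 value per gene and library for 23499 genes. Its unit is not named and was read as FPKM computed by the authors, because the values are not whole numbers and library sums differ. The submitters' processing notes name FastQC, Trimmomatic, HISAT2, SAMtools and HTSeq, whereas the study's methods name StringTie for quantification, and which of them gave these values is not stated. Coordinates were those of the table. All 9 gene identifiers and 23465 in total matched the RefSeq table of assembly ARS1.2, with the same start and end, which was used for transcripts. Labels say nothing beyond 1 library per goat and stage. The p-values therefore rest on the spread between goats of 1 farm within stages, pooled over the 3 stages. Each comparison thus also carries the spread of the stage outside it.

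Each library was divided by its median-ratio factor (from 15905 genes), 1 was added and log2 taken. Without scaling, the median of all genes shifted by 1.09 from LL to DP, 0.93 from LL to LG and -0.18 from DP to LG. A linear model without covariates was fitted by limma (version 3.58.1, in R version 4.3.3) to the 14701 genes that reached 0.5 FPKM in 3 or more libraries, with moderated variances and a mean-variance trend. Adjusted p-values are Benjamini-Hochberg over all genes tested. Reads could not be recovered from values rounded to 2 decimals, so no count test was run. The exact permutation test was not used, since 3 versus 3 libraries cannot give p below 0.1. Shares and patterns were computed in Python 3.11.15 with pandas 2.3.3 and numpy 2.4.6. The fit was tested on simulated data.

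The members, the pathway and marker lists and the tests were chosen with earlier results of these data known. Named genes are all 9 members, pathway genes called in at least 1 comparison, the cellular retinol-binding, CYP26 and RXR genes whatever their result, and the 3 most similar genes of each called member with a mean of at least 2 FPKM in its highest stage, outside the 8 next genes on either side. A few of the named pathway genes are not reported here, though the counts over the list include them. Alternatives covered no scaling, quantile normalization, a pseudocount of 0.1, no filter or a filter of 2 FPKM, fits of 2 stages, a replicate block, no trend, the adjusted p alone, leaving out 597 genes that follow 1 of the 8 next genes on either side to within 1% of their range, and leaving out each library.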

Additional observations from a re-analysis of the deposited data

How the results depend on the processing

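Over the 3 comparisons, 482 alternative values of single retinoid genes were computed. Of these, 140 kept their direction and side of the threshold in DP versus LL, 141 in LG versus LL and 146 in LG versus DP, while 14, 7 and 9 fell below the threshold, 6, 9 and 4 rose past it, and 0, 4 and 2 changed sign. The sign changes were those of ALDH1A3 in LG versus LL without scaling (0.34), RARA in LG versus LL without LL replicate 1 (-0.01), LL replicate 2 (-0.14) or LG replicate 2 (-0.07), and CRABP1 (0.24) and STRA6 (0.037) in LG versus DP without DP replicate 3. None of these was called in either setting. Leaving out each library gave -0.14 to 0.21 for RARA in LG versus LL, and -1.69 to 0.24 for CRABP1 and -1.13 to 0.037 for STRA6 in LG versus DP. Of 609 alternative values of the named pathway genes, 7 changed sign. Without scaling, RBP7 turned to 0.0297 in DP and 0.21 in LG and RXRA to 1.13 and 0.47, each versus LL. The other 3 were those of TGM2 in DP versus LL, which was -0.072 without LL replicate 1 and ranged to 0.37 when single libraries were left out. The number of all genes called rose from 3321 to 8348 in DP versus LL (7979 higher and 369 lower) and from 2544 to 7043 in LG versus LL (6698 higher and 345 lower) without scaling, which leaves in the shift of the median between stages. The pathway genes called rose to 24 and 12. With a pseudocount of 0.1, 3912 genes and 6 retinoid genes were called in LG versus LL. With the adjusted p alone, 8359, 7383 and 5112 genes were called in DP versus LL, LG versus LL and LG versus DP, with 19, 18 and 12 pathway genes and, in LG versus LL, 5 retinoid genes. Leaving out 1 library gave 3 to 7 retinoid genes called in DP versus LL (3 without DP replicate 3), 2 to 4 in LG versus LL and 2 to 6 in LG versus DP (2 without LG replicate 1 or LG replicate 3, both times ALDH1A3 and CRABP2). Pathway genes called were 9 to 12, 6 to 9 and 6 to 9, and all genes called 3075 to 3422, 2400 to 2576 and 1738 to 2004. Replicate numbers do not mark the same goats, and the deviations of same-numbered libraries correlated at -0.106 to 0.201. With the replicate number as a block, 6, 3 and 5 retinoid genes and 3340, 2564 and 1986 genes were called, so the block changed no count of retinoid genes. ALDH1A2 could not be tested under the filter of 2 FPKM. Depth is unknown, so counting error of the low LL values of RBP4, STRA6, ALDH1A2 and RARB could not be computed.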
